A study of Mus musculus with 6 samples.

Results

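The guidance genes followed here encode the Eph receptors and their ephrin ligands, and the Slit ligands with their Robo receptors. They also encode class 3 semaphorins, 2 class 6 semaphorins, plexins and neuropilins. They are the 43 genes of a list fixed by symbol, and all 43 had a row among the 24975 genes of the deposited count table. RNA had been sequenced from mesoderm sorted at embryonic day 7.5, with 1000 cells per library, from 3 control and 3 Gli3R libraries. Control embryos were Mesp1-Cre/+;R26-tdTomato/+ and, per the notes in the deposited table, were sorted for tdTomato. Gli3R embryos were Mesp1-Cre/+;R26-Gli3R-IRES-Venus/+ and were sorted for Venus. A Mesp1-Cre allele, which limits recombination to cells that have expressed Mesp1 and their descendants, was thus common to both groups, and the strain is not given in the sources used here. Gli3R is a form of Gli3, a DNA-binding factor of the Hedgehog pathway, that only represses and so blocks the pathway's transcriptional output. Each of 3 litters gave 1 library of each group, and embryos were pooled with their littermates. Because the reporter, its sort and the transgene changed together, their effects cannot be told apart.

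Eph receptors are receptor tyrosine kinases whose ligands, the ephrins, are themselves bound to the membrane, so that signalling needs contact between cells and can run in both directions. A-type ephrins are held by a lipid anchor and B-type ephrins span the membrane. Class 3 semaphorins are secreted and signal through plexins, mostly with a neuropilin as the binding co-receptor, and Slits are secreted ligands of Robo receptors. These systems are best known for steering axons, and they also act on migrating mesenchyme, on boundaries between somites and on blood vessels. The comparison asks which of them the migrating mesoderm of the gastrula transcribes and which differ between Gli3R and control libraries.

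Library totals ran from 5481190 to 12635151 counts, so that 1 count stood for 0.0777 to 0.186 CPM (counts scaled to library size by TMM). Gli3, of which the transgene carries a part, stood at 25.8, 29.5 and 34.4 CPM in controls 1, 2 and 3, and it reached 43.6, 39.0 and 50.9 CPM in Gli3R replicates 1, 2 and 3. Mesp1 itself stood at 25.2, 15.97 and 8.12 CPM in the controls and at 9.01, 11.2 and 14.3 CPM in Gli3R libraries, and its groups overlapped. All 15 early mesoderm markers of a fixed list passed the filter on low counts, and their summed level was 609 to 702 CPM in the controls and 672 to 711 CPM in Gli3R libraries, with Fn1 and Hand1 as the largest parts. Of these 15, 2 were higher (Hand1 and Kdr) and 4 lower (T, Msgn1, Tbx6 and Lefty2) at an unadjusted p under 0.05, and 0 passed over all genes. Control replicate 1, the shallowest library, lay above the other controls in some streak and epiblast genes but not in all. Eomes, at 2.23, 2.31 and 0.51 CPM in controls 1, 2 and 3, and Lefty2, at 4.64, 6.93 and 1.27 CPM, did not set it apart. T, the Brachyury gene, stood at 43.6 CPM in control replicate 1 against 16.4 and 7.99 CPM in control replicates 2 and 3. In Gli3R replicates 1, 2 and 3 it stood at 8.08, 5.13 and 3.53 CPM, a log2 fold change of -1.93 ± 0.55 (SE; edgeR adjusted p = 0.402, 0.0373 with the litter as a block).

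Of the 43 guidance genes, 33 passed the filter on low counts and were tested, and 39 had a read in every library. By mean control level, 12 were above 10 CPM, 20 lay between 1 and 10 CPM and 11 were below 1 CPM. To compare levels between genes, CPM was divided by the length of the longest annotated transcript. On that scale (CPM per kilobase) the control mesoderm was led by Efna1 at 27.4 ± 2.43 (SD, n = 3), Nrp1 at 14.7 ± 5.27 and Efna4 at 12.4 ± 0.72. The receptor gene Epha4 came next at 3.99 ± 1.34, followed by Efnb1 at 3.46 ± 0.34, Efna2 at 3.40 ± 0.58, Efna5 at 3.30 ± 0.43 and Efnb2 at 2.59 ± 0.74. Efna1 lay above each other gene in every control library, and Nrp1 and Efna4, whose ranges overlapped, lay above Epha4 in each. Among Epha4, Efnb1, Efna2, Efna5 and Efnb2, neighbours in this order did not differ beyond the spread of the libraries. Ligands of the ephrin family thus held 6 of the 8 highest places by this length. With the median transcript length in place of the longest, 6 of these 8 genes stayed among the 8 highest. The ephrin genes Efna2 and Efnb2 fell to places 15 and 11, while the plexin genes Plxnb2 and Plxna1 stood at places 2 and 5. The share of ephrin ligands among the highest genes thus depended on the length used.

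**Figure D1:**
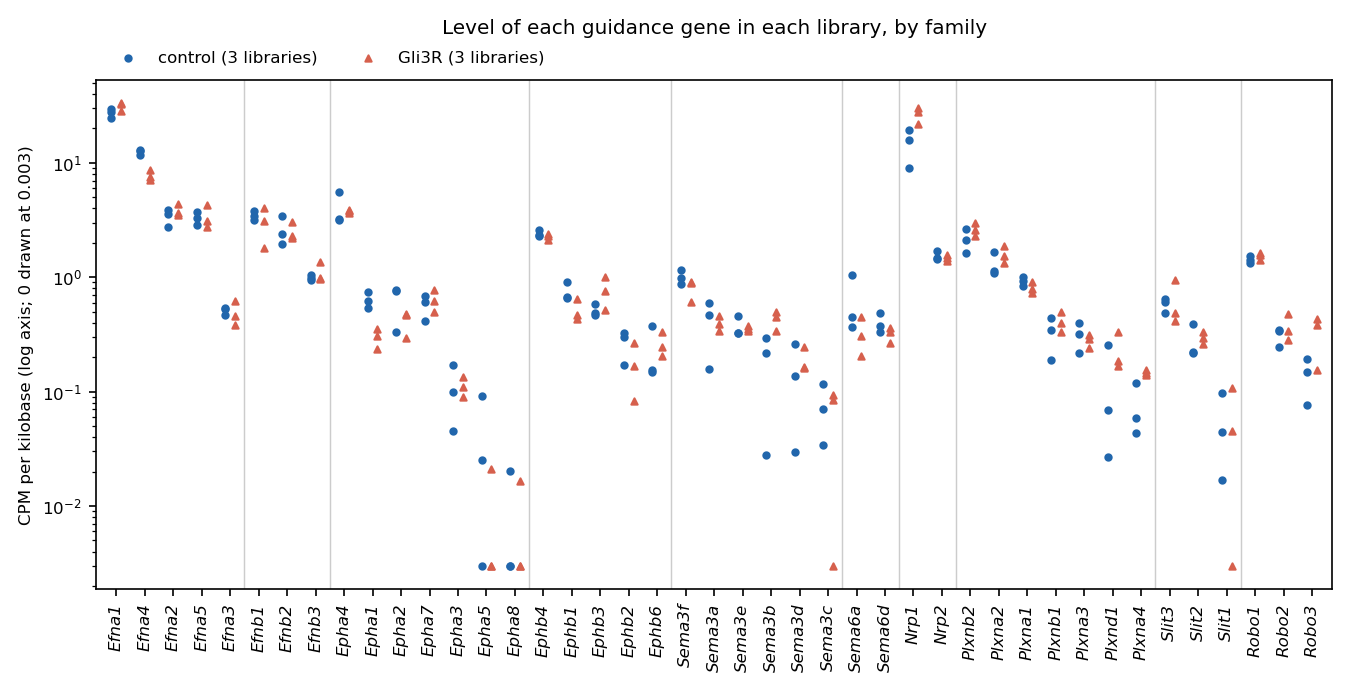
Level of each of the 43 guidance genes in CPM per kilobase (log axis), grouped by family and ordered within a family by mean control level; circles are the 3 control libraries, triangles the 3 Gli3R libraries, and a library without a read is drawn at the bottom of the axis. Efna1 and Nrp1 stand at the top, Epha5, Epha8 and Slit1 at the bottom, and for most genes circles and triangles cover the same range.

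Summed by family, transcripts of ephrin-A ligands reached 47.0 ± 3.03 CPM per kilobase in control (SD, n = 3), against 5.97 ± 1.03 for their EphA receptors. The ephrin-B ligands summed to 7.04 ± 0.63 and the EphB receptors to 4.16 ± 0.35. In the semaphorin system the order of ligand and receptor was the other way round: the 6 class 3 semaphorins together held 2.18 ± 0.62, whereas the 2 neuropilins held 16.3 ± 5.13 and the 7 plexins 5.18 ± 0.14. The Slits, at 0.91 ± 0.17, likewise lay below the Robo receptors, at 1.89 ± 0.14. Each of these 4 orders held in all 6 libraries. They concern transcripts per length only and assume that reads cover long and short transcripts alike. The sums used the longest transcript of each gene and were not redone with the median length. Plxnb2 and Plxna1 ranked 10 and 16 by the longest transcript and 2 and 5 by the median length, so the plexin sum in particular depends on that choice. It also holds all 7 plexins, not only those that receive class 3 semaphorins, and Plxnb2 alone made up 41.3% of it in control. The class 6 semaphorins, at 1.02 ± 0.45, were not in the ligand sum. The order of class 3 semaphorins and their own plexins was therefore not settled.

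**Figure D2:**
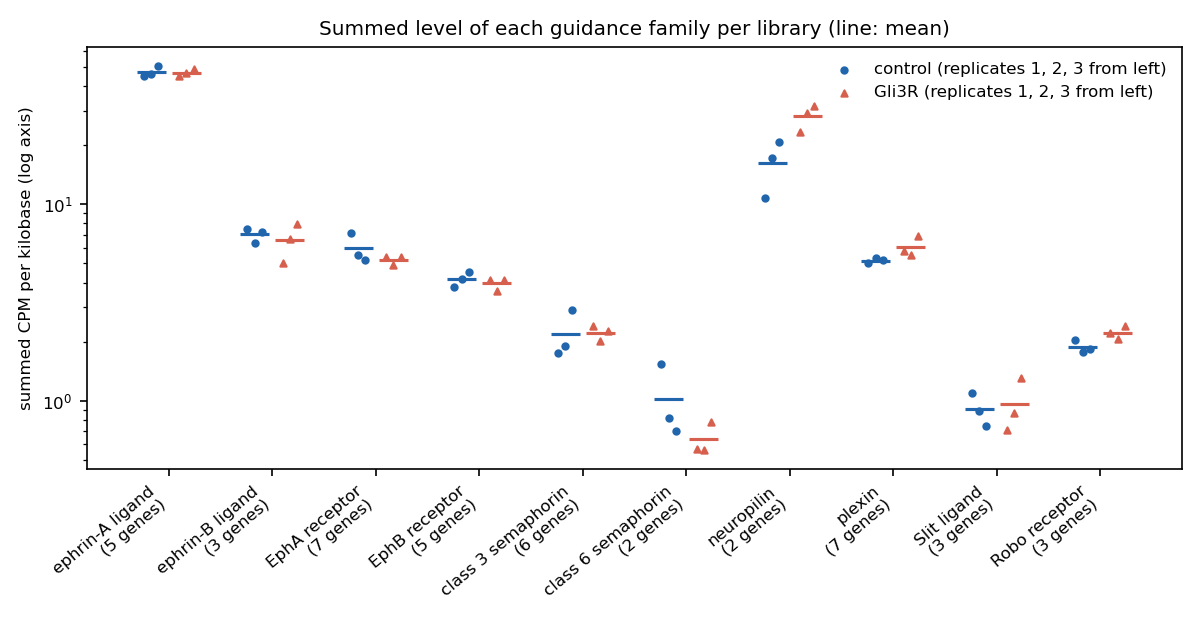
Summed level of each family in CPM per kilobase (log axis) in each library; circles are control, triangles Gli3R, replicates 1, 2 and 3 from left to right, and lines are means. For the neuropilins every Gli3R library (23.4 to 31.8) lies above every control library (10.7 to 20.8), the plexin and Robo sums are also apart but by little, and the ephrin-A sum is level at 44.7 to 50.5 in control and 45.1 to 48.9 in Gli3R libraries.

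None of the 33 tested guidance genes passed at an adjusted p under 0.05 when Gli3R was compared with control (edgeR's quasi-likelihood F test, Benjamini-Hochberg adjusted p over 11913 genes), where 0.134% of all tested genes passed. With the litter as a block the count was again 0, against 0.227% of all genes. At an unadjusted p under 0.05, Nrp1 was higher and Efna4 and Epha1 were lower, which is 3 of 33 beside 6.85% of all tested genes (3.56% higher, 3.29% lower); the litter block gave the same 3 (8.73% of all genes). DESeq2's Wald test called 1 member, Nrp1 (0.789% of all genes called), and 2 at an unadjusted p under 0.05, Nrp1 and Efna4 (5.04%). The groups did not overlap for 5 members, 2 higher and 3 lower, beside 5.62% and 6.33% of all tested genes, and 11 members had differences of 1 sign in all 3 litters beside 30.1%. The median log2 fold change of the 33 was -0.0415, with 16 values above 0 and 17 below, and the median of all tested genes was -0.00787. For 20 members the 95% interval of the fold change, taken gene by gene, lay within 2-fold either way, beside 81.8% of all tested genes.

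**Figure D3:**
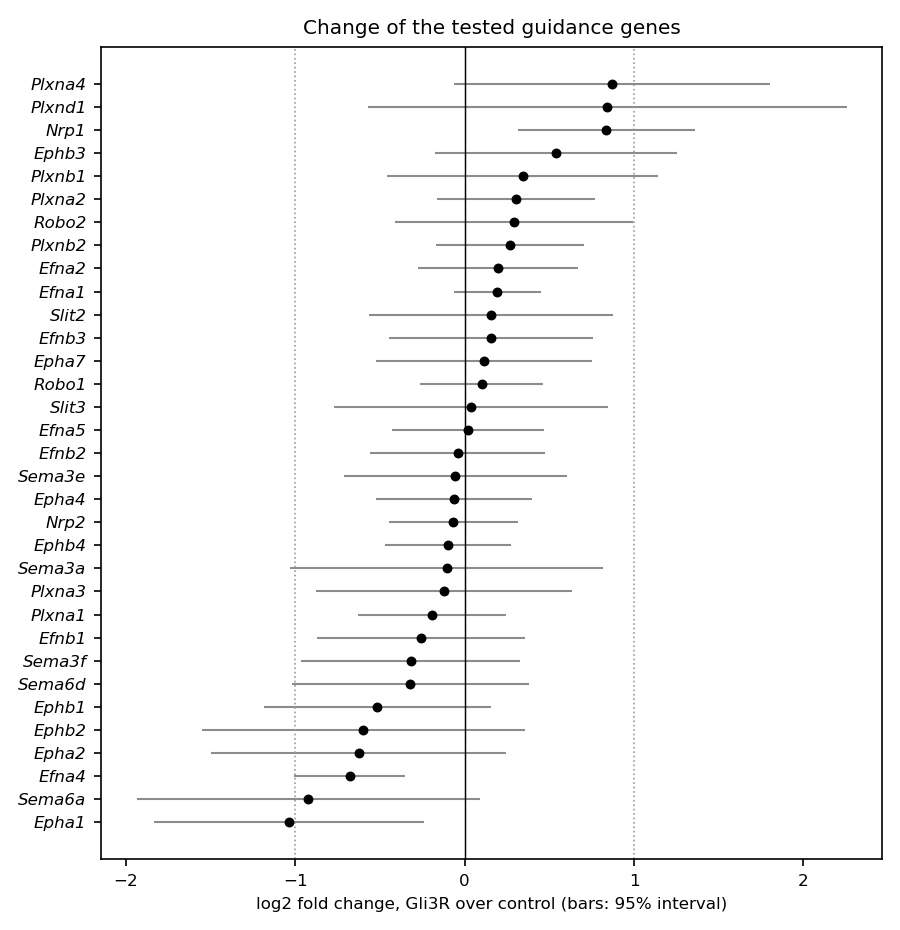
Log2 fold change of the 33 tested guidance genes, Gli3R over control, with the 95% interval of each gene from the edgeR fit; dotted lines mark 2-fold. The intervals of Nrp1, Efna4 and Epha1 leave out 0, and those of Plxnd1, Sema6a and Plxna4 are among the widest.

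Nrp1 (Entrez gene 18186) encodes neuropilin-1, the co-receptor that binds class 3 semaphorins and also the vascular growth factor VEGF-A. Its level was 32.8, 57.6 and 70.6 CPM in controls 1, 2 and 3, and 79.6, 101 and 110 CPM in Gli3R replicates 1, 2 and 3. Every Gli3R library lay above every control library, and within litters 1, 2 and 3 the difference was 1.28, 0.81 and 0.64 on the log2 scale. The means were 53.7 ± 19.2 and 97.1 ± 15.8 CPM (SD, n = 3), a log2 fold change of 0.84 ± 0.23 (SE) or 1.79-fold, with a 95% interval of 0.32 to 1.36 on the log2 scale. This did not pass over all genes in the edgeR quasi-likelihood test (adjusted p = 0.374), nor with the litter block (adjusted p = 0.0502). It passed in DESeq2's Wald test (adjusted p = 0.0116), in edgeR without the filter on low counts (0.0174, with 0.577% of all genes called) and in the blocked fit without litter 1 (4.45e-04, with 1.85% of all genes called), the last chosen after seeing the data. Without control replicate 1, the lowest library, the log2 fold change was 0.60 (edgeR adjusted p = 0.273).

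Nrp1 is also a gene of vessel-forming cells, so the endothelial and blood markers are given beside it. Of 16 such markers 12 were tested, 0 passed over all genes, and 4 were higher and 0 lower at an unadjusted p under 0.05: Etv2, Tal1, Runx1 and Kdr. In the fits in which Nrp1 passed, Tal1 and Etv2 passed as well: in edgeR without the filter (adjusted p = 0.00213 and 0.0200), in DESeq2's Wald test (1.81e-04 and 0.0193) and in the blocked fit without litter 1 (0.00179 and 0.0484). That last fit called 3 of the markers higher, Runx1 being the third, and 1 lower. The lower one was Hbb-bh1, with a log2 fold change of -0.65 ± 0.16 (edgeR adjusted p = 0.0279). Passing in the same fits as Nrp1 was not particular to this list, as genes of other marker lists given below did so too. The summed level of the 16 was 411 to 651 CPM in the controls and 470 to 903 CPM in Gli3R libraries, with the globin gene Hbb-bh1 as the largest part in each library. None of the 16 was at 0 in all libraries, though Cdh5, Tie1 and Emcn, which mark formed endothelium, stayed below 1.3 CPM in each. Other markers of the list stood well above that level: Egfl7, Tek, Pecam1 and Esam had control means of 80.5, 12.2, 10.8 and 8.16 CPM. Their log2 fold changes were -0.13 ± 0.11, 0.21 ± 0.24, 0.05 ± 0.20 and 0.54 ± 0.30.

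A list for the allantois and other extraembryonic mesoderm is given here as well. Of its 13 genes 12 were tested, 1 rose over all genes, and 6 were higher and 0 lower at an unadjusted p under 0.05. The one that rose was Ahnak, at 37.7, 42.8 and 47.3 CPM in the controls and 76.7, 91.4 and 88.5 CPM in Gli3R libraries (log2 fold change 1.00 ± 0.12; edgeR adjusted p = 0.0172). With the litter block 3 passed, Ahnak, Msx1 and Bmp4, all higher. In the fits in which Nrp1 passed, Ahnak, Msx1, Bmp4 and Tagln passed as well. There 4 genes of the list were called without the filter on low counts, 4 in DESeq2's Wald test and 7 in the blocked fit without litter 1, all higher. Tbx4 and Plac1 went the other way, with log2 fold changes of -0.38 ± 0.23 and -0.18 ± 0.20 that did not pass. The list summed to 1323 to 1913 CPM in the controls and 1761 to 2332 CPM in Gli3R libraries, and none of the 13 was at 0 throughout. The part of either group of cells in the Nrp1 result was not tested, and in sorted bulk samples more cells of a type cannot be told apart from more RNA per cell.

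Nrp2, the other neuropilin, stood at 11.5, 9.81 and 9.77 CPM in the controls and 10.4, 9.23 and 9.82 CPM in Gli3R libraries, a log2 fold change of -0.07 ± 0.17 with a 95% interval of -0.45 to 0.31. The ratio of Nrp1 to Nrp2 was 2.85, 5.87 and 7.23 in control and 7.65, 11.0 and 11.2 in Gli3R replicates 1, 2 and 3, so the groups did not overlap.

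Efna4 (13639), which encodes the membrane-anchored ligand ephrin-A4, stood at 20.4, 18.6 and 20.7 CPM in controls 1, 2 and 3, and it had 13.7, 11.3 and 11.97 CPM in the Gli3R replicates. The groups lay apart, with a spread within each that was small beside the gap, and the within-litter differences were -0.57, -0.72 and -0.79 on the log2 scale. Its log2 fold change was -0.68 ± 0.15 (SE; 95% interval -1.01 to -0.35), or 1.60-fold lower, and it had the smallest p of the 33 in the edgeR fit without the block, while with the litter block Nrp1 had the smallest. It did not pass over all genes (edgeR, adjusted p = 0.189; 0.116 with the litter block; 0.112 in DESeq2's Wald test), and it passed in the blocked fit without litter 1 alone (0.0430). GENCODE places an exon of the opposite-strand gene 4731419I09Rik over an Efna4 exon, and the strand setting of the counting is not given, so reads of that stretch cannot be assigned with certainty.

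Efna1 (13636) lies next to Efna3 and Efna4 on chromosome 3 and encodes the ligand ephrin-A1. It stood at 40.3, 45.8 and 47.9 CPM in the controls and 46.4, 53.6 and 53.9 CPM in Gli3R libraries, higher in all 3 litters by 0.17 to 0.23 on the log2 scale, while the groups overlapped. The log2 fold change of 0.19 ± 0.12 did not pass (edgeR adjusted p = 0.897), and its 95% interval of -0.07 to 0.45 left out a change of the size seen for Efna4. Efna3, the gene between them, had 29 reads in control and 33 in Gli3R libraries and was not tested. Efna4 made up 28.5%, 25.3% and 25.6% of the summed ephrin-A level per kilobase in control replicates 1, 2 and 3 and 19.1%, 15.2% and 15.3% in the Gli3R replicates. The ratio of Efna1 to Efna4 in CPM was accordingly 1.97 to 2.47 in control and 3.37 to 4.75 in Gli3R libraries, while the family sum per kilobase was 47.0 ± 3.03 in control and 46.8 ± 1.92 in Gli3R libraries.

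The 250 bases before the start sites of Nrp1 and Efna4 are shown because these genes had the smallest p-values of the list with or without the litter block, and those of Plxna2 because its window holds a match to part of the GLI motif. They come from RefSeq on GRCm38.p6, a later build than the mm9 named in the submitters' processing notes, 5′ to 3′ along the gene's strand. Nrp1 is at chr8:128358823-128359072 on the plus strand, Efna4 at chr3:89338029-89338278 on the minus strand and Plxna2 at chr1:194619579-194619828 on the plus strand.
Nrp1: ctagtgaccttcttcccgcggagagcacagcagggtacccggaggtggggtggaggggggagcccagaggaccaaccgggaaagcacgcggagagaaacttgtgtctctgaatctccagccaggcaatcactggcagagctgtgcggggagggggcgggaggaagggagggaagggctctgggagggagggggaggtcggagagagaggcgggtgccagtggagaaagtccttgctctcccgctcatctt
Efna4: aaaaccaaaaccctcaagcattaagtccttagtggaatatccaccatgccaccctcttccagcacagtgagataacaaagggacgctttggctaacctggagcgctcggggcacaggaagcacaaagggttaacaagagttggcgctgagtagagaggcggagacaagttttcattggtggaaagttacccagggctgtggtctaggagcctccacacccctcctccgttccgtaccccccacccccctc
Plxna2: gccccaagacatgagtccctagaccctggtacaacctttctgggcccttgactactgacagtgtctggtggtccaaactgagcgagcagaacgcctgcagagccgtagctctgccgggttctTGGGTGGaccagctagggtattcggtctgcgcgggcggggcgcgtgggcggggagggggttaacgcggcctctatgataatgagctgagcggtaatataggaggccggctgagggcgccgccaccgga
Capitals mark the match in Plxna2. Windows of 300 bases (250 before and 50 after the start) were at hand for 36 members and were searched on both strands for GACCACCCA, the consensus bound by GLI factors, and for its last 7 letters, CCACCCA, which any full match also holds. The full motif was in 0 of 43 member windows (some genes have several starts) and in 0.253% of all 32851 windows. The 7 letters were in 3 member windows, those of Plxna2, Sema3c and Robo2, and in 9.30% of all windows. In Plxna2 the match runs from base -128 to -122 before the start, as the reverse complement TGGGTGG. No window was found for Efnb3, Plxna1, Plxna4, Sema3b, Sema3f, Sema6a and Slit1.

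Among the other ephrins, which are the ligands of neighbouring cells, no group difference stood out. Efna2 stood at 7.61, 5.87 and 8.24 CPM in the controls and 9.32, 7.43 and 7.82 CPM in Gli3R libraries, and Efna5 at 13.2, 11.6 and 15.1 against 12.4, 11.0 and 17.2 CPM. Efnb1, an X-linked gene whose product takes part in sorting cells at boundaries, stood at 10.2, 11.2 and 12.4 CPM in the controls and 5.82, 10.1 and 13.04 CPM in Gli3R libraries. Its log2 fold change of -0.26 ± 0.27 rested on Gli3R replicate 1, the lowest library, and was 0.03 without it. Efnb2, the ligand of arterial cells, stood at 16.3, 9.43 and 11.5 against 10.9, 10.5 and 14.4 CPM, and the control value of litter 1 was the highest of the 6. Efnb3 differed by 0.16 ± 0.27 on the log2 scale. The groups of all 5 genes overlapped, and the log2 fold changes of Efna5 and Efnb2 changed sign under 3 and 4 of 15 alternatives.

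The EphA receptors bind mainly the A-type ligands. Epha1 (13835) stood at 2.41, 2.02 and 1.78 CPM in the controls and 1.01, 1.15 and 0.77 CPM in Gli3R libraries, or 48 against 27 reads. The groups did not overlap, each litter was lower, and the log2 fold change was -1.04 ± 0.36 (95% interval -1.84 to -0.24; edgeR adjusted p = 0.518, litter block 0.445). Exons of Epha1 and of the opposite-strand gene Zyx overlap, and Zyx stood higher, at 27.0 ± 2.39 against 36.8 ± 5.93 CPM, so an unstranded count of Epha1 could hold Zyx reads. Epha2, a receptor of the streak and its early derivatives, stood at 1.299, 2.98 and 3.04 CPM in the controls and 1.86, 1.15 and 1.84 CPM in Gli3R libraries. The Gli3R library was higher in litter 1 and lower in litters 2 and 3, and the log2 fold change was -0.63 ± 0.39 (edgeR adjusted p = 0.902).

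Epha4, the most abundant Eph receptor transcript, stood at 35.1, 20.2 and 20.5 CPM in the controls and 24.5, 23.2 and 23.9 CPM in Gli3R libraries. Control replicate 1 was apart from the other 5, which lay between 20.2 and 24.5 CPM. The log2 fold change of -0.06 ± 0.21 became 0.23 without that library. Epha7 differed by 0.11 ± 0.28 on the log2 scale. Epha3 had 15 reads in control and 17 in Gli3R libraries, Epha5 8 and 1, and Epha8 1 and 1. Of these receptors Epha5 had 7 of its 8 control reads in control replicate 2, and a count of 0, seen in several libraries, allows a level of up to 0.233 to 0.557 CPM.

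Epha1 and Epha2 are also known from epithelial cells, so markers of the epiblast and ectoderm are given beside the lower members. Of 15 epiblast and ectoderm markers 8 were tested, 0 passed over all genes, and 5 were lower and 0 higher at an unadjusted p under 0.05, among them Cdh1 at 7.24, 3.56 and 2.28 CPM in the controls against 0.54, 0.51 and 0.31 CPM in Gli3R libraries. With the litter block Cdh1 passed over all genes (edgeR adjusted p = 0.0327, against 0.0869 without it), the only one of the 8 to do so, and 5 passed without the filter on low counts and 4 in DESeq2's Wald test, all lower. The summed level was 291, 191 and 153 CPM in controls 1, 2 and 3, and 145 to 158 CPM in Gli3R libraries, and none of the 15 was at 0 throughout. The 13 paraxial and presomitic markers summed to 326 to 477 CPM in the controls and 165 to 246 CPM in Gli3R libraries, with 10 of 11 tested lower at an unadjusted p under 0.05 and 2 lower over all genes, Fst and Dll3, with or without the block. Without the filter on low counts 6 of these markers passed, 3 did in DESeq2's Wald test and 8 in the blocked fit without litter 1, all lower. The part of these cells in the values of Epha1, Epha2, Efna4 and Sema6a was not tested.

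EphB receptors bind the B-type ligands and pair with them at vessel and tissue boundaries. Ephb4, the venous partner of Efnb2, stood at 10.2, 10.0 and 11.2 CPM in the controls and 9.16, 10.3 and 9.97 CPM in Gli3R libraries. Its log2 fold change was -0.10 ± 0.16, with a 95% interval of -0.47 to 0.27. Ephb1 stood at 3.15, 4.23 and 3.04 CPM against 3.03, 2.18 and 1.995 CPM. Its groups did not overlap, though the nearest libraries almost met, and the log2 fold change of -0.52 ± 0.30 did not pass (edgeR adjusted p = 0.882).

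Ephb3 stood at 2.23, 2.31 and 2.79 CPM in the controls and 3.57, 2.44 and 4.76 CPM in Gli3R libraries, with a log2 fold change of 0.54 ± 0.32. Ephb2 stood at 1.86, 3.27 and 3.55 CPM against 2.87, 0.90 and 1.84 CPM, with a log2 fold change of -0.60 ± 0.43. Both overlapped between groups, and for Ephb2 the Gli3R library was higher in litter 1 and lower in litters 2 and 3. Ephb6, a receptor without kinase activity, had 20 reads in control and 28 in Gli3R libraries and was not tested.

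**Figure D4:**
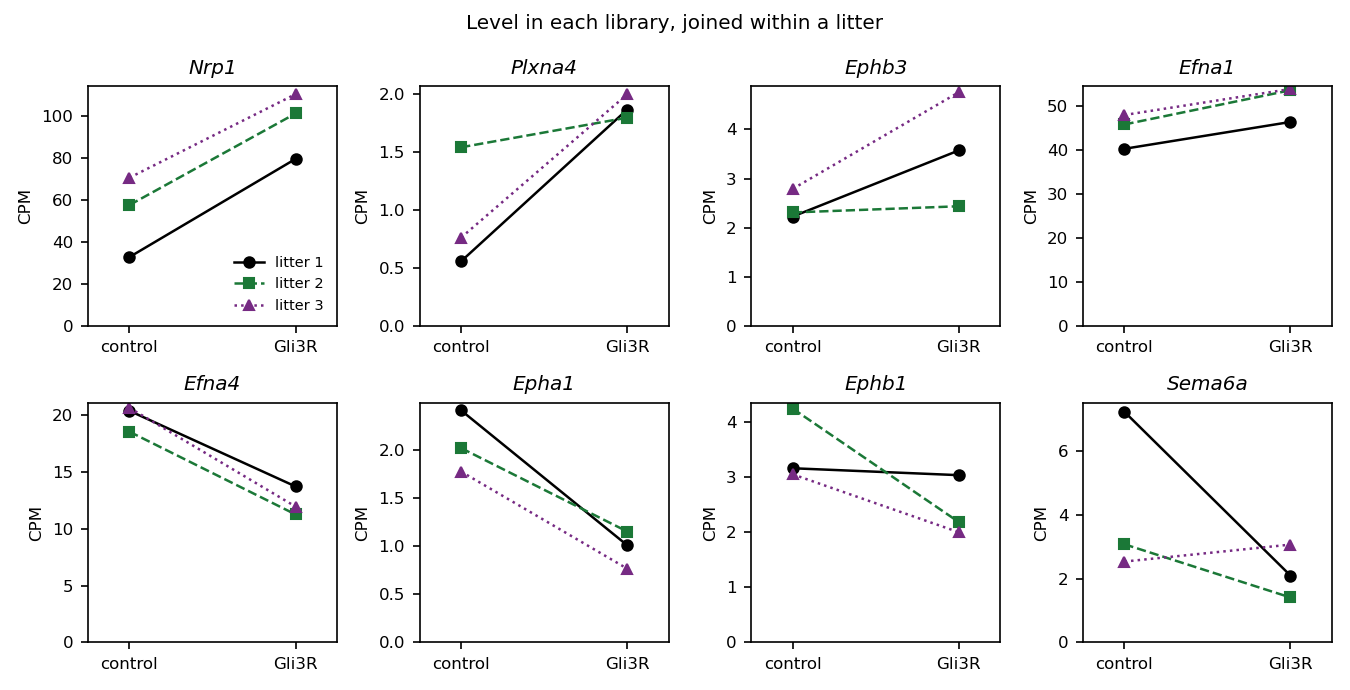
CPM of 8 guidance genes in control and Gli3R libraries (vertical axes from 0, each with its own range), with lines joining the 2 libraries of a litter. Nrp1 is higher and Efna4 and Epha1 are lower with Gli3R in all 3 litters, without overlap of the groups, whereas Sema6a starts from 1 high control library (7.24 CPM, litter 1).

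The semaphorin ligands were among the rarer transcripts of the list. Sema3f, which signals mainly through Nrp2, was the most abundant of class 3 per kilobase, at 3.34, 2.98 and 3.93 CPM in the controls and 3.03, 2.05 and 3.07 CPM in Gli3R libraries (log2 fold change -0.32 ± 0.29). Sema3a, a ligand of Nrp1, and Sema3e, which binds Plxnd1 directly, differed by -0.11 ± 0.41 and -0.05 ± 0.29. Sema3a was lowest in control replicate 1, at 0.93 CPM against 1.995 to 3.55 CPM in the other 5 libraries. Sema3b, Sema3c and Sema3d were not tested, with 13, 10 and 23 reads in control and 41, 10 and 31 in Gli3R libraries. Sema3b had 4, 1 and 8 reads in control and 22, 9 and 10 in Gli3R replicates 1, 2 and 3, or 0.74, 0.10 and 1.01 against 1.71, 1.15 and 1.53 CPM. Its groups did not overlap, and it did not pass in edgeR without the filter on low counts (adjusted p = 0.745).

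Sema6a, a membrane-bound ligand of plexin-A receptors, stood at 7.24, 3.08 and 2.54 CPM in the controls and 2.10, 1.41 and 3.07 CPM in Gli3R libraries. Control replicate 1 set most of its log2 fold change of -0.92 ± 0.45 (edgeR adjusted p = 0.779), which was -0.38 without that library. Sema6d, the other class 6 member, differed by -0.32 ± 0.31.

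Of the 7 plexins, the signalling receptors of semaphorins, 5 had a log2 fold change above 0 and 2 below, and 0 passed. Plxnb2 led per kilobase and stood at 10.6, 17.2 and 13.8 CPM in the controls and 16.7, 15.0 and 19.3 CPM in Gli3R libraries (log2 fold change 0.27 ± 0.19). Plxna2 stood at 18.4, 12.4 and 11.9 CPM against 16.8, 14.6 and 20.9 CPM. Its log2 fold change was 0.30 ± 0.21, and 0.51 without control replicate 1. Both overlapped between groups. Plxna1, Plxna3 and Plxnb1 differed by -0.19 ± 0.19, -0.12 ± 0.34 and 0.34 ± 0.36.

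Plxna4 and Plxnd1 were rare. Plxna4 had 25 reads in control and 51 in Gli3R libraries, and stood at 0.56, 1.54 and 0.76 CPM against 1.86, 1.79 and 1.995 CPM. The groups did not overlap, and the log2 fold change of 0.87 ± 0.42 did not pass (edgeR adjusted p = 0.757). Plxnd1, the endothelial semaphorin receptor, had 20 and 40 reads and stood at 0.19, 0.48 and 1.78 CPM against 1.17, 1.28 and 2.30 CPM. Gli3R was higher in each litter, by 2.32, 1.31 and 0.36 on the log2 scale, but control replicate 3 lay above 2 Gli3R libraries and the log2 fold change was 0.84 ± 0.63 (95% interval -0.57 to 2.26). Without control replicate 3 it was 1.996 (edgeR adjusted p = 0.445 or more under every alternative run).

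The groups of all 6 Slit and Robo genes overlapped. Robo1, the main receptor by level, stood at 11.7, 10.1 and 10.8 CPM in the controls and 11.9, 10.6 and 12.3 CPM in Gli3R libraries. Its log2 fold change was 0.10 ± 0.16, with a 95% interval of -0.26 to 0.46. Robo2 differed by 0.29 ± 0.31. Slit2 stood at 3.90, 2.21 and 2.16 CPM against 2.95, 3.33 and 2.61 CPM, and Slit3 at 3.15, 3.37 and 2.54 against 2.17, 2.56 and 4.91 CPM. The log2 fold changes of these ligands were 0.16 ± 0.32 and 0.04 ± 0.36, and their groups overlapped.

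Robo3, a divergent family member, and Slit1 were not tested. Robo3 had 4, 10 and 3 reads in control and 10, 15 and 14 in Gli3R replicates 1, 2 and 3, or 0.74, 0.96 and 0.38 against 0.78, 1.92 and 2.15 CPM. Within litters 1, 2 and 3 it differed by 0.06, 0.96 and 2.33 on the log2 scale. Slit1 had 6 reads in each group. In edgeR without the filter on low counts Robo3 differed by 1.12 ± 0.57 on the log2 scale and did not pass (adjusted p = 0.847).

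Other guidance genes, from lists fixed by name, gave 0 calls in either direction across the 11913 genes (edgeR's F test, Benjamini-Hochberg), with or without the litter block. The first list held 18 further Eph, semaphorin, plexin and Robo genes, of which 4 were tested and 0 reached an unadjusted p under 0.05. Its lowest p-values were those of Sema5a (log2 fold change 0.41 ± 0.30), Sema5b (-0.46 ± 0.47), Sema4d (-0.48 ± 0.52) and Plxnc1 (0.23 ± 0.38). The second held 17 genes of the netrin, repulsive guidance molecule and FLRT systems, of which 6 were tested and 1 was higher at an unadjusted p under 0.05. That was Unc5c, a netrin receptor gene, at 32.7 ± 4.40 CPM in the controls and 47.7 ± 8.14 CPM in Gli3R libraries (log2 fold change 0.54 ± 0.15; edgeR adjusted p = 0.400, litter block 0.110). Flrt2, Unc5b and Neo1 followed at 0.42 ± 0.24, 0.33 ± 0.28 and -0.27 ± 0.23. The third held 54 cytoplasmic effectors and proteases, of which 44 were tested. Of these, 2 were higher and 2 lower at an unadjusted p under 0.05: Kalrn (0.49 ± 0.16) and Vav3 (0.92 ± 0.35), exchange factors that act below Eph receptors, and the kinase gene Fyn (-0.44 ± 0.19) and the adaptor gene Nck2 (-0.46 ± 0.19). DESeq2's Wald test likewise called 0 of the 54 tested genes of the 3 lists.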

How the data were processed

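The authors deposited raw counts per Entrez gene and library; the table carries the name of featureCounts. Tools in the submitters' processing notes are TopHat2 2.0.14 and Subread 1.4.6, with FastQC, featureCounts and edgeR, and the build is mm9; their roles are not stated. No source used here states the annotation, the strand setting or the handling of multiply matching reads. Per the labels' protocols, cDNA came from a SMARTer kit and libraries from Nextera XT.

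The counts went unchanged into edgeR 4.0.16 under R 4.3.3. Its filterByExpr (minimum count 10) kept 11913 genes, which were scaled by TMM and compared by the two-sided quasi-likelihood F test. Adjusted p-values are Benjamini-Hochberg over all tested genes, with a threshold of 0.05. The method was tested on simulated data. The 95% intervals use the fit's standard error and degrees of freedom; limits for a count of 0 (3 counts) cover counting error only. Within-litter differences use log2 CPM with a pseudocount of 0.5 counts. Lengths came from GENCODE vM21 transcripts (all 43 members matched) and promoters from RefSeq.

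Same-numbered libraries share a litter, per the labels. Their deviations from the group means had correlations of 0.168, 0.187 and 0.0755 in litters 1, 2 and 3. Pairs from different litters ran from -0.269 to 0.162, so the value of litter 3 lay within their range. The p-values measure the spread between these pools. Alternatives were the litter block, DESeq2 size factors, library size alone, no filter, at least 5 CPM in 3 libraries, the DESeq2 1.42.0 Wald test and each library left out; leaving out a litter was added after seeing the data. Members and lists were chosen with earlier results of these data known. Values in every library are given for the 14 members with the smallest p, the 8 highest per kilobase and 6 partner genes, and 4 genes are named per further list; others were named after their values were seen.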

Additional observations from a re-analysis of the deposited data

How the results depend on the processing

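The count of guidance genes called was 0 in edgeR under either other scaling, with at least 5 CPM in 3 libraries, with the litter as a replicate block (0 called) and without any 1 library (0 to 0). It was 1 (Nrp1) without the filter on low counts and 1 (Nrp1) in DESeq2's Wald test. In blocked fits without a litter it was 2 (Nrp1 and Efna4) without litter 1 and 0 without litter 2 or 3. For Nrp1 the adjusted p ran from 4.45e-04 to 0.820 over 15 alternatives, and the log2 fold change from 0.60 to 1.08. For Efna4 they ran from 0.0430 to 0.751 and from -0.77 to -0.62. The cause was not tested. At an unadjusted p under 0.05 in edgeR's F test, the count of 3 of 33 became 5 of 43 without the filter. It was 3 to 6 of 33 to 36 tested members without a library and 4 to 6 of 35 in blocked fits without a litter. The share of all genes in those fits is not given, so these counts cannot be set against a background. The median log2 fold change ran from -0.0629 to 0.100 without a library (0.0107 with the replicate block). Of the 43 members, 33 passed the main filter, 14 had at least 5 CPM in 3 libraries and 31 at least 1 CPM in all 3 control libraries. The other guidance genes gave 1 call (Unc5c, higher) in the blocked fit without litter 1 and 0 elsewhere. Depth limits the rarer members: 10 had too few reads to be tested.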
